A study of Gallus gallus with 18 samples.

Results

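The genes described here were those of cytokines, chemokines, TNF-family members, Toll-like receptors (TLR) and their receptors in broiler breeder hens. They were all genes whose symbol, in the study's supplementary lists of differentially expressed and of tissue-specific genes, began with IL and a number, CCL, CXCL, CCR and a number, CXCR, TNFRSF, TNFSF, TLR or CSF and a number, apart from a few symbols that the rule left out. This gave 51 of the 17108 genes in the table, of which 5824 could be named. The list of differentially expressed genes used here was shortened to those with the smallest p in each tissue, so 16 members were in effect named by the feeding comparison in liver, 18 by that in adipose and 24 by that in ovary. Their feeding values in those tissues are therefore a description, and nothing was read from counts of them. A place on the shortened list is not taken to mean that a member passed the study's false discovery rate under 0.1. CSF3R was on it for adipose, with an unadjusted p of 0.271 by the edgeR quasi-likelihood test used here. The 7 members named by the tissue list alone were IL1RAP, IL13RA1, IL17RC, CCLI5, CXCR7, TNFRSF11A and TNFRSF11B, and the feeding comparison had not named these under their symbols. In all, 14 members were on the tissue list, and their tissue levels are a description with no test. The tissue levels of the other 37 members were tested.

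Liver, abdominal fat (adipose below) and ovary were taken from the same 6 Arbor Acres hens at 30 weeks of age, which gave 18 libraries. Library names join G (liver), F (abdominal fat) or M (ovary) to the number of the hen. G1721, G1723 and G1725 came from the 3 hens that had eaten ad libitum from 22 weeks of age, G1724, G6709 and G6710 came from the 3 hens that had stayed on the restricted ration of the breeder's guide, and the same numbers after F and M are the same hens. All 6 hens had been reared to the same target weight before that, and the ovary sample was stroma with its small follicles. Values of single hens are given below in this order. The hens were separate animals in single cages, so the replicate is the hen. Each library was RNA of a whole piece of tissue, so fewer cells of a type and less RNA per cell cannot be told apart. The libraries held 14793554 to 23261748 counts, and the precision of low levels is set by these totals. Levels are CPM, the counts of a gene scaled to a common library total, with the TMM (trimmed mean of M values) factors of all 18 libraries, and 3 counts were 0.266 to 0.355 CPM in liver, 0.111 to 0.165 in adipose and 0.0843 to 0.102 in ovary. Levels count reads per gene, not per length, so they were compared between libraries and not between genes. Summed markers of hepatocytes were 358147 to 445753 CPM in liver, those of adipocytes were 10078 to 25583 CPM in adipose and those of ovarian cells were 735 to 1525 CPM in ovary. In the other tissues the same sums reached at most 539, 220.3 and 83.3 CPM.

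Cytokines are small secreted proteins through which leukocytes and tissue cells act on each other, and chemokines are the branch of them that directs cell movement. Interleukins and colony-stimulating factors mostly act through receptors that start JAK-STAT signalling, whereas receptors of the interleukin 1 family and Toll-like receptors share an intracellular domain and lead to NF-kB. Ligands and receptors of the TNF superfamily control the survival, activation and death of cells. Liver holds resident macrophages, adipose tissue holds macrophages and lymphocytes, and the ovary takes in leukocytes around ovulation and follicle regression. Roles named below are those known in mammals, unless chicken is named.

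**Figure D1:**
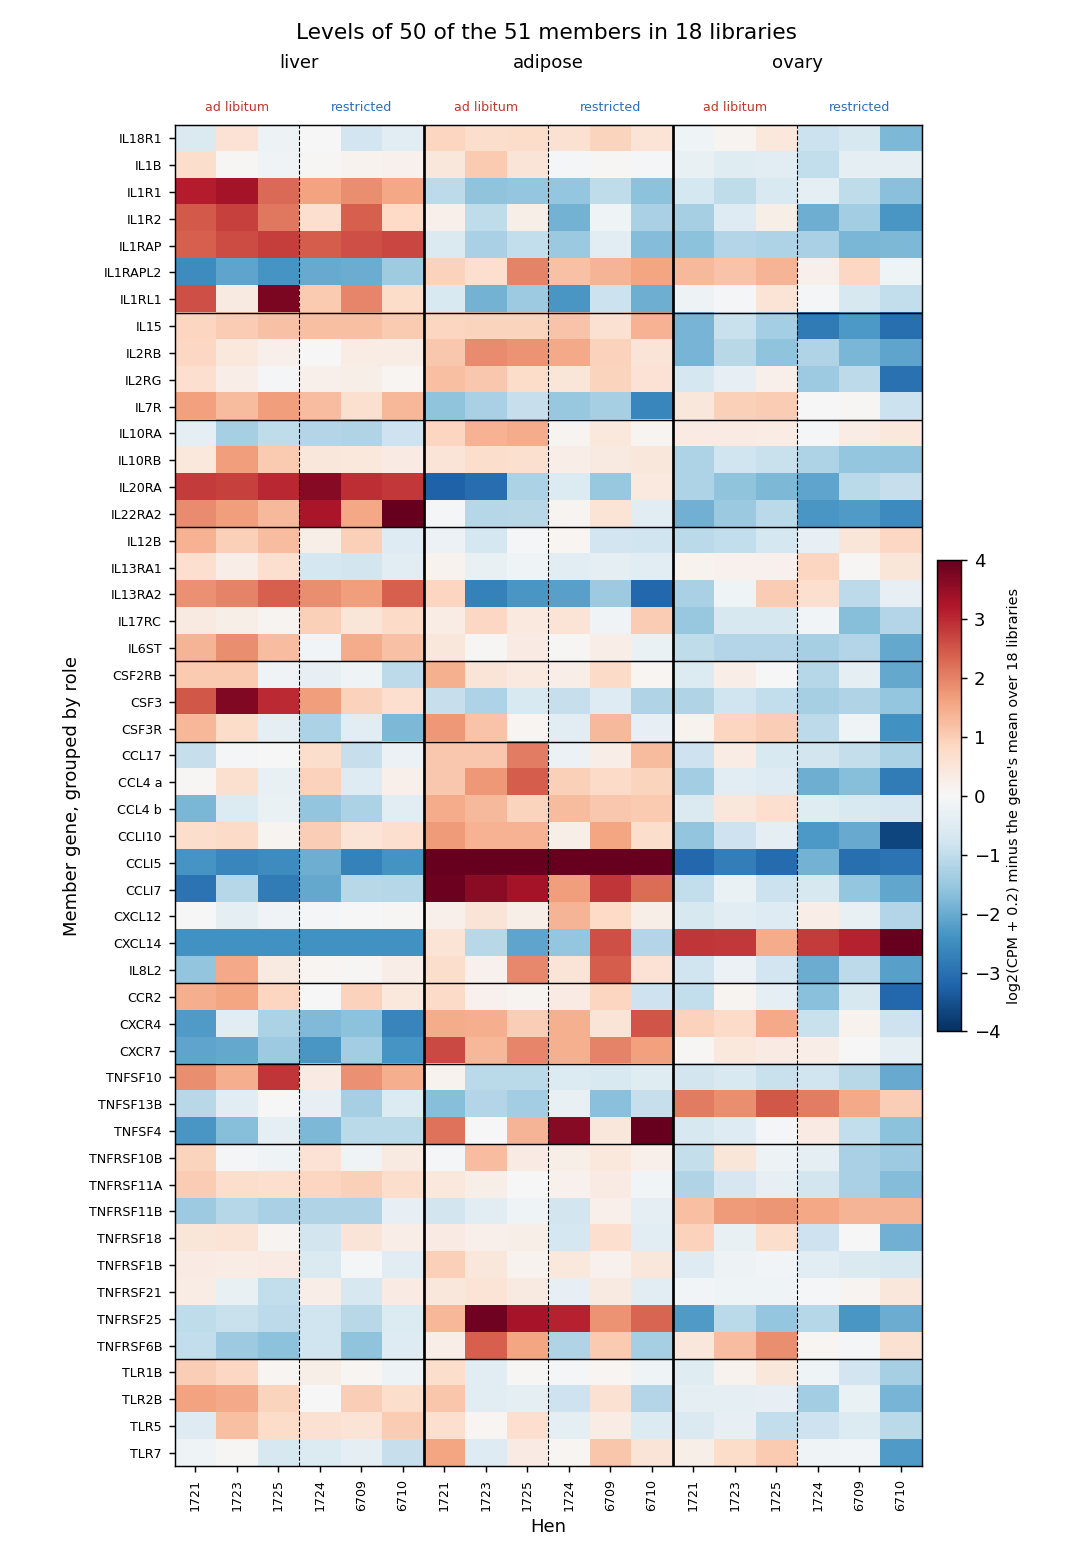
Levels of 50 of the 51 members in 18 libraries. Each row is a gene and each column the library of 1 hen in liver, adipose or ovary. Colour is log2(CPM + 0.2) minus the mean of the gene over the 18 libraries, with the scale ending at -4 and 4, and horizontal lines separate roles. CCLI5 stands above its mean in the 6 adipose columns alone, CSF3 in the liver columns, and in ovary the column of the hen of M6710 is the lowest for 31 of the 45 members drawn and tested. The feeding comparison had named most members, so this last count is a description. CCL4 a is ENSGALG00000000951 and CCL4 b is ENSGALG00000000956.

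No member differed between the feeding groups past the threshold of a false discovery rate (FDR) under 0.1 over all genes tested, by the edgeR quasi-likelihood test, in any of the 3 tissues. Genes above 1 CPM in every library of a feeding group were tested, and 42 of the 51 members were so in liver, 49 in adipose and 46 in ovary. CPM in this filter was without the TMM factors. A member printed above 1 CPM in liver could therefore fail it, and 1 printed below 1 CPM in ovary could pass. Of these, 3 in liver, 4 in adipose and 4 in ovary passed through the ad libitum group alone and 1 in adipose (IL22RA2) through the restricted group alone. Those through the ad libitum group were IL12B, CSF3 and CXCR4 in liver, IL1R2, IL13RA2, CCL17 and TNFRSF6B in adipose and IL1R2, CCLI7, IL8L2 and CCR2 in ovary. Over all genes, 0.00967% passed in liver (1 of 10339), 0.00839% in adipose (1 of 11914) and 0% in ovary (0 of 12871). The smallest FDR of a member was 0.274 in liver, 0.89 in adipose and 0.878 in ovary. An unadjusted p under 0.05 was reached by 11 members in liver, 5 in adipose and 15 in ovary, where 13.7%, 5.19% and 4.85% of all genes reached it. By direction, 9 members were higher and 2 lower in the ad libitum group in liver (all genes 6.24% and 7.42%), 4 and 1 in adipose (2% and 3.19%) and 14 and 1 in ovary (3.02% and 1.83%). In ovary all genes at an unadjusted p under 0.05 numbered 624, and DESeq2 and the likelihood ratio test of edgeR called 48 and 24 genes. The same 2 tests called 241 and 146 of all genes in liver and 78 and 88 in adipose. DESeq2 called 5 members in liver (IL13RA1, IL1R1, CSF3, CSF3R and CSF2RB), 2 in adipose (IL10RA and CCLI7) and 2 in ovary (CXCR4 and IL15), and the likelihood ratio test called 4, 1 and 1 of these. All of these members but IL13RA1 had been named by the feeding comparison in the same tissue, so these calls are a description.

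The log2 fold change of ad libitum over restricted feeding was above 0 in 30 of 42 members in liver, 36 of 49 in adipose and 40 of 46 in ovary. Over all genes it was above 0 in 49.6%, 51.9% and 47.8%. The median over members was 0.31 in liver, 0.22 in adipose and 0.66 in ovary, beside a median over all genes of -0.02 to 0.01. Since the feeding comparison had named most members, these shares and medians are descriptions of the members and not evidence on feeding. Of the 40 members tested in all 3 tissues, 23 were above 0 in each and 2 (CXCL12 and IL20RA) were below 0 in each, and over all 9882 such genes 20.9% and 18.6% were. An unadjusted p under 0.05 in more than 1 tissue was found for CSF3R (liver and ovary) and for 1 of the CCL4 genes (adipose and ovary), in both cases with the ad libitum hens higher, and for 1.62% of all genes (1.3% in 1 direction). Of the 7 members that the feeding comparison had not named under their symbols, 6 were tested in liver. IL13RA1 and IL17RC were under 0.05 there, beside 13.7% of all genes, and nothing is read from so small a count. None of the 7 tested in adipose and none of the 6 tested in ovary were under 0.05 (5.19% and 4.85% of all genes).

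**Figure D2:**
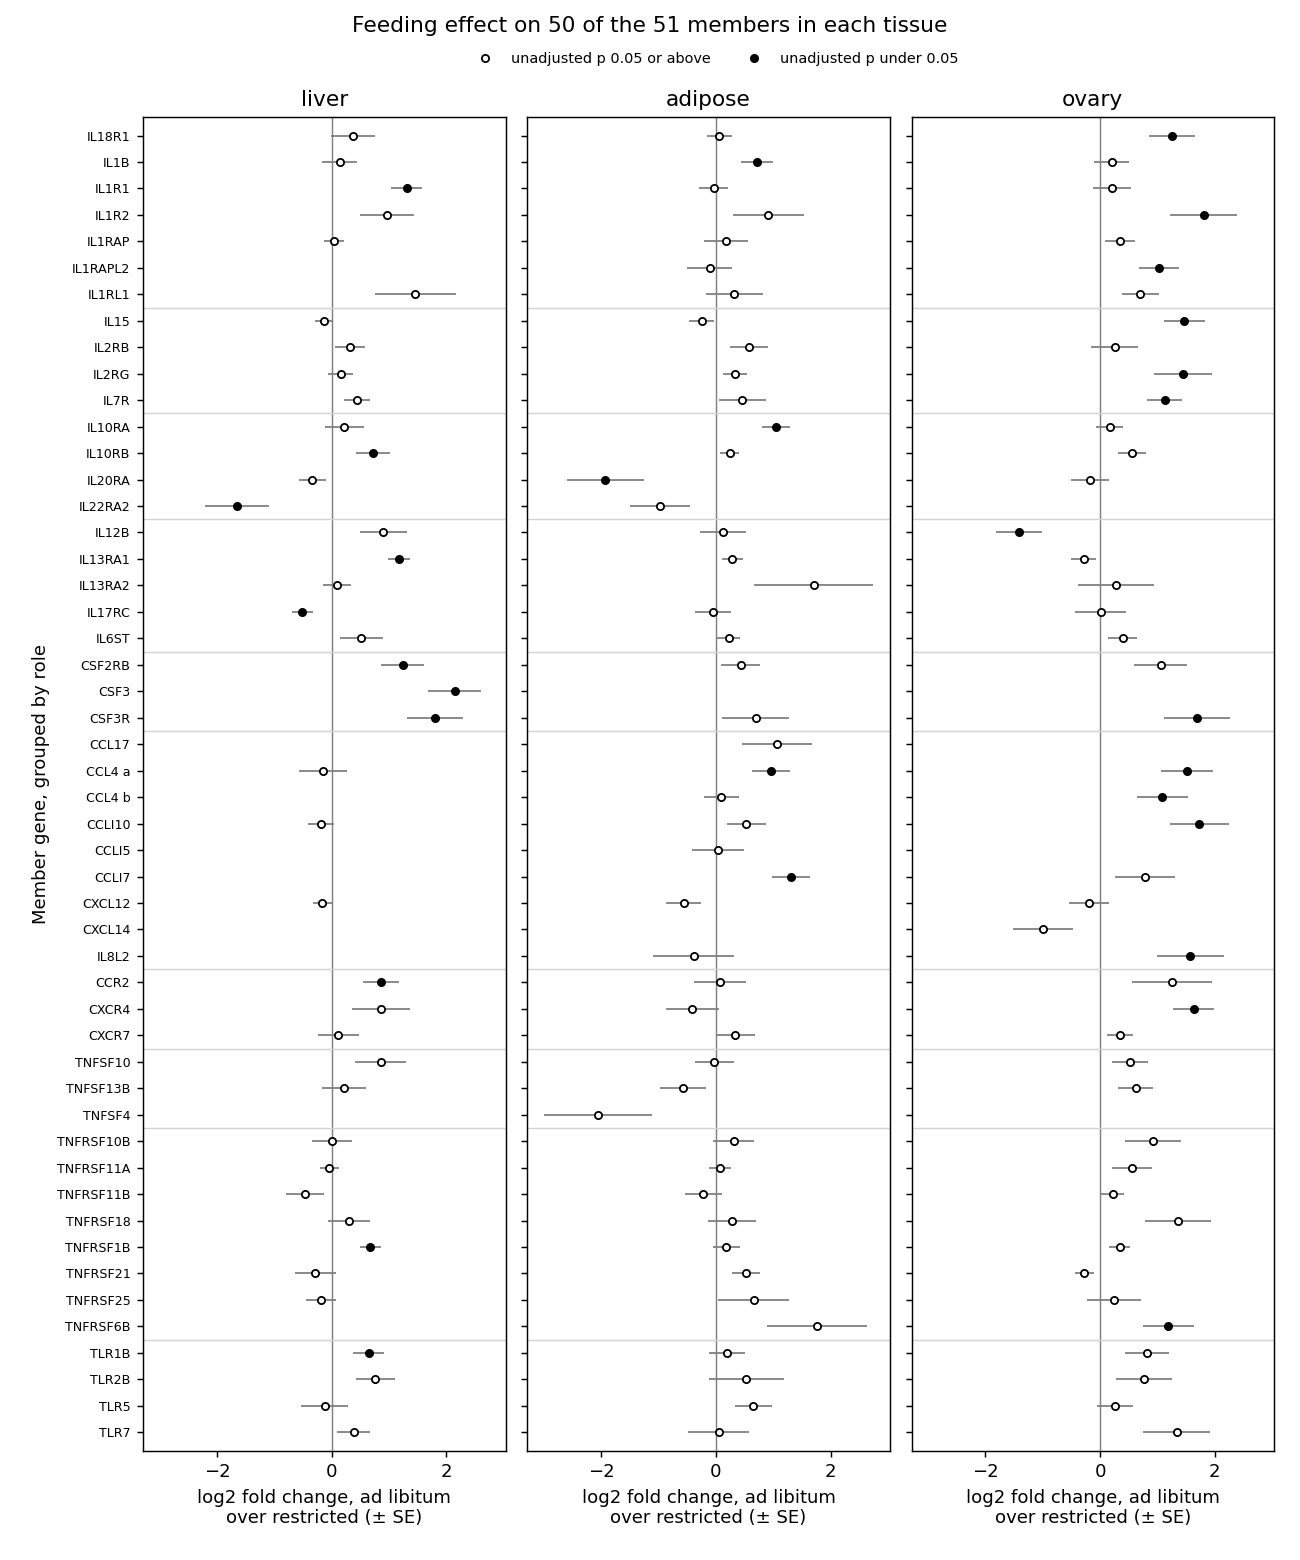
Feeding effect on 50 of the 51 members in liver, adipose and ovary. Points are the log2 fold change of ad libitum over restricted feeding with its SE (3 hens per group), filled where the unadjusted p was under 0.05, and an empty row was not tested. Filled points lie on the right in 9 of 11 cases in liver, 4 of 5 in adipose and 13 of 14 in ovary, and none had an FDR under 0.1.

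The interleukin 1 family was represented by the ligand IL1B, a main inflammatory cytokine, and by 6 receptor chains. IL1R1 is the receptor that transmits the IL1 signal, and IL1RAP is the accessory chain it needs. The level of IL1R1 was 156 to 536 CPM (median 226) in liver, 17.2 to 26.3 CPM (median 18.3) in adipose and 16.7 to 41.7 CPM (median 29.7) in ovary, so that every liver library was above every other library. IL1RAP was likewise at 160.3 to 208 CPM (median 184) in liver, 8.91 to 22 CPM (median 13.7) in adipose and 8.44 to 13.4 CPM (median 11) in ovary. IL1R2, a decoy that binds IL1 without signalling, was at 9.67 ± 4.91 CPM in liver, 1.53 ± 0.933 CPM in adipose and 1.02 ± 0.858 CPM in ovary (mean ± SD, n = 6 hens). It was higher in liver than in adipose (log2 difference 2.64 ± 0.46 (SE), FDR = 7.60e-05) and than in ovary (3.41 ± 0.47 (SE), FDR = 6.08e-06). IL1RL1, the receptor of IL33, was at 84.7 ± 83.6 CPM in liver, 6.66 ± 3.22 CPM in adipose and 15.8 ± 5.79 CPM in ovary. IL1RAPL2, an accessory-like chain of the family, showed the opposite order, with 22 counts over all liver libraries and a log2 difference of -4.00 between liver and adipose. In the RefSeq annotation of the GRCg7b assembly IL1R2 and IL1R1 are neighbours, IL1RL1 and IL18R1 are neighbours, and 1 protein-coding gene lies between IL1R1 and IL1RL1.

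In liver IL1R1 was at 472, 536 and 259 CPM in the ad libitum hens and 163, 194 and 156 CPM in the restricted hens. The lowest ad libitum hen was above the highest restricted hen (log2 fold change 1.31 ± 0.28 (SE), FDR = 0.324). In adipose and ovary the IL1R1 groups overlapped, with log2 fold changes of -0.03 and 0.20. IL1RAP, its partner, was in liver at 160.3, 187 and 208 CPM in the ad libitum hens and 165, 181 and 193 CPM in the restricted hens, with full overlap (log2 fold change 0.04 ± 0.17 (SE), FDR = 0.919). IL1RL1 in liver was at 107, 22.8 and 243 CPM in the ad libitum hens and 37, 68.9 and 29.3 CPM in the restricted hens. Hen G1725 alone was more than 2 times every other hen, a pattern that 1.64% of all liver genes showed, and without 1 hen the log2 fold change ranged from 0.53 to 1.97. IL1B was at 5.72, 8.71 and 6.04 CPM in the ad libitum hens and 3.96, 4.28 and 4.02 CPM in the restricted hens in adipose, without overlap (log2 fold change 0.72 ± 0.28 (SE), FDR = 0.907). In liver and ovary the IL1B groups overlapped. In ovary IL1R2, IL18R1 and IL1RAPL2 did not overlap between the groups, with log2 fold changes of 1.80, 1.25 and 1.03. All of these had been named by the feeding comparison in ovary, so nothing is read from their separation. IL1R2 also passed the filter on low counts through the ad libitum ovaries alone, so a difference was built into its being tested. IL18R1 binds IL18, and its ovarian level was 5.2, 6.36 and 8.02 CPM in the ad libitum hens and 3.17, 3.76 and 1.55 CPM in the restricted hens. All 7 members of this role were above 0 on the log2 scale in ovary, 6 of 6 in liver and 5 of 7 in adipose, beside 47.8%, 49.6% and 51.9% of all genes. All but IL1RAP had been named by the feeding comparison in a tissue, so these counts are a description.

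The common gamma chain group held IL15, which sustains T cells and natural killer cells, and the receptor chains IL2RB, IL2RG and IL7R. IL15 was at 48.6 to 60.9 CPM (median 57.7) in liver, 40.7 to 70.2 CPM (median 49.1) in adipose and 3.13 to 14.2 CPM (median 6.25) in ovary. Liver and adipose overlapped, and every ovary library was below both. IL7R, the receptor by which lymphocytes sense IL7, was at 33 ± 7.81 CPM in liver, 4.55 ± 1.56 CPM in adipose and 17.2 ± 7.65 CPM in ovary, and IL2RB was at 8.31 ± 1.72 CPM in liver, 16.9 ± 6.06 CPM in adipose and 2.03 ± 0.616 CPM in ovary. IL2RG, the chain shared by this receptor family, was at 38.4 ± 7.4 CPM in liver, 58.6 ± 11.6 CPM in adipose and 18.9 ± 11.5 CPM in ovary. In ovary IL15 was at 7.25, 14.2 and 10.3 CPM in the ad libitum hens and 3.54, 5.25 and 3.13 CPM in the restricted hens. All 3 ad libitum hens were above all 3 restricted hens (log2 fold change 1.47 ± 0.36 (SE), FDR = 0.878). IL7R followed at 18, 25.5 and 26.5 CPM in the ad libitum hens and 12.8, 13.3 and 7.08 CPM in the restricted hens, again without overlap (1.13 ± 0.31 (SE), FDR = 0.878). IL2RG in ovary was at 19.6, 25.6 and 37.1 CPM in the ad libitum hens and 11.7, 15.6 and 3.92 CPM in the restricted hens (1.45 ± 0.50 (SE), FDR = 0.878), without overlap, and hen M6710 was the lowest. IL15, IL7R and IL2RG had been named by the feeding comparison in ovary and IL2RB had not, so nothing is read from their separation there. In liver and adipose none of the 4 genes was separated, and the largest log2 fold change was that of IL2RB in adipose, 0.58 ± 0.34 (SE), FDR = 0.907. Over all genes tested, groups did not overlap for 9.57% in ovary, 21.2% in liver and 8.74% in adipose.

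Of the class II cytokine receptors, IL10RA and IL10RB form the receptor of the anti-inflammatory IL10, IL20RA serves cytokines of the IL20 group, and IL22RA2 is a soluble chain that captures IL22. IL20RA was at 251 to 466 CPM (median 282) in liver, 3.79 to 49.7 CPM (median 14.2) in adipose and 8.52 to 19.6 CPM (median 14.1) in ovary, with all liver libraries above all others. Its neighbour in the RefSeq annotation, IL22RA2, was at 3.55 to 24.4 CPM (median 5.03) in liver, 0.484 to 2.04 CPM (median 1.09) in adipose and 0.0608 to 0.52 CPM (median 0.155) in ovary, and its log2 difference between liver and adipose was 2.93 ± 0.41 (SE), FDR = 9.49e-06. IL10RA was at 3.23 ± 0.888 CPM in liver, 11.7 ± 5.08 CPM in adipose and 7.87 ± 0.93 CPM in ovary, and IL10RB was at 35.7 ± 15.4 CPM in liver, 28.5 ± 3.33 CPM in adipose and 8.77 ± 2 CPM in ovary. In adipose IL10RA was at 11.9, 17.3 and 18.3 CPM in the ad libitum hens and 6.93, 8.69 and 6.96 CPM in the restricted hens. The groups did not overlap, and the log2 fold change of 1.05 ± 0.25 (SE), FDR = 0.89 had the smallest p of the members in this tissue. Adipose IL20RA was at 3.79, 4.41 and 15.5 CPM in the ad libitum hens and 25.6, 12.9 and 49.7 CPM in the restricted hens. Hen F1725 of the ad libitum group was above the restricted hen F6709, so the groups overlapped (-1.93 ± 0.68 (SE), FDR = 0.907). IL22RA2 in liver was at 5.44, 4.62 and 3.55 CPM in the ad libitum hens and 14.4, 4.23 and 24.4 CPM in the restricted hens. Restricted hens G1724 and G6710 were high while restricted hen G6709 was below 2 of the ad libitum hens, and the log2 fold change was -1.65 ± 0.56 (SE), FDR = 0.324. Without hen G6709 it was, with IL1R2, 1 of the 2 members that had an FDR under 0.1, in a fit where 104 of all 10440 genes did. Liver IL1R2 was at 12.8, 15.5 and 10.1 CPM in the ad libitum hens and 3.54, 12.2 and 3.93 CPM in the restricted hens. For both genes the hen left out was the restricted hen that lay among the ad libitum hens. Both had also been named by the feeding comparison in liver, so nothing is read from these calls. In ovary IL22RA2 had 44 counts over 6 libraries and was not tested.

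The other interleukin subunits were IL12B, the subunit shared by IL12 and IL23, IL13RA1, the receptor chain of IL13 and IL4, IL13RA2, a decoy for IL13, IL17RC, a receptor of IL17, and IL6ST, the signalling chain of the IL6 family. IL13RA1 was at 15.2 to 40.1 CPM (median 24.3) in liver, 18.8 to 27.7 CPM (median 19.9) in adipose and 26.3 to 45.6 CPM (median 28.2) in ovary, and the 3 tissues overlapped. Its liver level was 40.1, 30.3 and 40.1 CPM in the ad libitum hens and 15.3, 15.2 and 18.3 CPM in the restricted hens. The 2 groups were apart, and the log2 fold change of 1.18 ± 0.19 (SE), FDR = 0.274 had the smallest p of any member in any tissue (0.000251, unadjusted). Without 1 hen it stayed between 1.11 and 1.31. In ovary IL13RA1 was at 28.1, 28.3 and 28.2 CPM in the ad libitum hens and 45.6, 26.3 and 35.4 CPM in the restricted hens, with a log2 fold change of -0.29 ± 0.22 (SE), FDR = 0.878. In adipose it was at 27.7, 20.5 and 22.4 CPM in the ad libitum hens and 18.9, 19.4 and 18.8 CPM in the restricted hens, without overlap but with a log2 fold change of 0.29 ± 0.18 (SE), FDR = 0.907. IL17RC in liver lay the other way, at 69.2, 62.4 and 57.4 CPM in the ad libitum hens and 104, 74.2 and 90.9 CPM in the restricted hens, again without overlap (-0.51 ± 0.19 (SE), FDR = 0.337).

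IL12B was at 3.78 ± 1.62 CPM in liver, 1.52 ± 0.467 CPM in adipose and 1.86 ± 1.2 CPM in ovary. In ovary it was at 0.843, 0.933 and 1.17 CPM in the ad libitum hens and 1.57, 2.88 and 3.77 CPM in the restricted hens. Here the restricted hens were the higher ones, without overlap (-1.42 ± 0.40 (SE), FDR = 0.878). In liver the IL12B values were 5.63, 4.08 and 5.09 CPM in the ad libitum hens and 2.39, 4.14 and 1.37 CPM in the restricted hens and overlapped (0.90 ± 0.41 (SE), FDR = 0.372). IL13RA2 was at 34.9 ± 7.65 CPM in liver, 3.88 ± 5.64 CPM in adipose and 8.55 ± 5.5 CPM in ovary and was higher in liver than in adipose (3.4 ± 0.62 (SE), FDR = 0.00012). Its adipose level was 15.3, 1.11 and 1.5 CPM in the ad libitum hens and 1.71, 2.88 and 0.761 CPM in the restricted hens. The value of hen F1721 was more than 2 times that of every other hen, as in 3.22% of adipose genes, and without 1 hen the log2 fold change ranged from -0.48 to 2.28. IL6ST was at 207 ± 75.5 CPM in liver, 95.8 ± 16 CPM in adipose and 35.1 ± 7.56 CPM in ovary. Its log2 fold change was 0.52 in liver, 0.22 in adipose and 0.39 in ovary, and its groups overlapped in each.

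CSF3 is the granulocyte colony-stimulating factor, CSF3R is its receptor, and CSF2RB is the signalling chain for CSF2, IL3 and IL5. CSF3 was found mainly in liver, at 0.731 to 7.41 CPM (median 2.37), whereas adipose held 16 counts and ovary 13 counts over 6 libraries each. The log2 difference between liver and adipose was 4.21 ± 0.47 (SE), FDR = 6.58e-07. In liver CSF3 was at 3.05, 7.41 and 4.49 CPM in the ad libitum hens and 1.68, 0.919 and 0.731 CPM in the restricted hens. The groups did not overlap, and the log2 fold change was 2.15 ± 0.47 (SE), FDR = 0.324. CSF3 passed the filter on low counts through the ad libitum livers alone, where it was high, so a difference was built into its being tested. CSF3R in liver was at 30.7, 20.5 and 9.23 CPM in the ad libitum hens and 4.96, 9.01 and 3.38 CPM in the restricted hens, without overlap by a small margin, since ad libitum hen G1725 stood next to restricted hen G6709 (1.80 ± 0.49 (SE), FDR = 0.324). CSF2RB in liver was at 26.2, 26 and 11.5 CPM in the ad libitum hens and 9.93, 11.1 and 5.94 CPM in the restricted hens, with the same neighbours (1.24 ± 0.37 (SE), FDR = 0.324). All 3 genes had been named by the feeding comparison in liver, so nothing is read from their separation there. In ovary CSF3R was at 13.4, 22.3 and 24.2 CPM in the ad libitum hens and 5.86, 11.1 and 2.1 CPM in the restricted hens (1.70 ± 0.58 (SE), FDR = 0.878), and in adipose its groups overlapped (0.69 ± 0.58 (SE), FDR = 0.907). CSF2RB had log2 fold changes of 0.43 in adipose and 1.06 in ovary, with overlap. CSF2RB is named CRCBL in RefSeq.

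Beside these liver values stand those of leukocyte markers. In every tissue a marker could be found only if the study's supplementary lists gave its symbol. The list of differentially expressed genes was shortened by feeding p, so the marker values are descriptions as well. The 5 pan-leukocyte markers found summed to 474 to 809 CPM in the ad libitum hens and 412 to 503 CPM in the restricted hens, and the 9 macrophage markers to 1097 to 1846 CPM in the ad libitum hens and 1106 to 1409 CPM in the restricted hens. The sum of the 4 heterophil and granulocyte markers found was 10.8 to 45.7 CPM in the ad libitum hens, with hen G1721 the highest. In the restricted hens it was 5.11 to 21.1 CPM. These 3 sums overlapped between the feeding groups. The 6 endothelial markers summed to 944 to 974 CPM in the ad libitum hens and 338 to 899 CPM in the restricted hens, without overlap, and thrombocyte markers to 32.1 to 49.9 CPM in the ad libitum hens and 25.2 to 47.8 CPM in the restricted hens. No marker of these lists was at 0 in all 6 livers. PTPRC (pan-leukocyte), MMP9 (granulocyte) and CDH5 (endothelial) had an unadjusted p under 0.05, each higher in the ad libitum group. Of all liver genes 6.24% had such a p in that direction. Of the 4 granulocyte markers 2 were tested, and LYZ, the other, was lower in the ad libitum group (log2 fold change -0.35 ± 0.32 (SE)). The part of these cells in the liver results was not tested.

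The 9 chemokine ligands were the largest role. CCLI5 and CCLI7 are chicken inducible CC chemokines. CCLI5 was at 45.6 to 146 CPM (median 113) in adipose, against 17 counts over all liver libraries and 34 over all ovary libraries. CCLI7 was at 0.191 to 1.2 CPM (median 0.857) in liver, 9.41 to 46.2 CPM (median 26.1) in adipose and 0.517 to 2.32 CPM (median 1.41) in ovary, a log2 difference of -5.04 ± 0.43 (SE), FDR = 2.56e-08 between liver and adipose and of 4.16 ± 0.38 (SE), FDR = 1.71e-07 between adipose and ovary. CCLI10, which RefSeq names CCL26 and places with 1 protein-coding gene between it and CCLI7, was at 48.9 ± 9.35 CPM in liver, 73.8 ± 24.9 CPM in adipose and 11.1 ± 7.85 CPM in ovary. The symbol CCL4 belonged to a pair of neighbouring genes, ENSGALG00000000951 and ENSGALG00000000956, which draw monocytes and T cells. Reads of such similar genes may have been split or lost in counting, so their values are uncertain. The former was at 9.23 ± 3.64 CPM in liver, 21.2 ± 11.2 CPM in adipose and 3.12 ± 1.91 CPM in ovary, and the latter was at 0.557 ± 0.321 CPM in liver, 2.96 ± 0.47 CPM in adipose and 1.09 ± 0.585 CPM in ovary. CCL17, a ligand for T cells, was at 0.308 ± 0.226 CPM in liver, 0.984 ± 0.635 CPM in adipose and 0.168 ± 0.16 CPM in ovary. IL8L2, a chicken counterpart of IL8 that attracts heterophils, was at 1.68 ± 1.22 CPM in liver, 3.39 ± 2.47 CPM in adipose and 0.524 ± 0.344 CPM in ovary.

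In adipose CCLI7 was at 46.2, 36.9 and 30.5 CPM in the ad libitum hens and 9.41, 21.7 and 14 CPM in the restricted hens. The groups did not overlap (1.31 ± 0.33 (SE), FDR = 0.89). CCL4 of ENSGALG00000000951 was at 16.3, 26.3 and 41.8 CPM in the ad libitum hens and 15.1, 13.1 and 14.4 CPM in the restricted hens, with hen F1721 only just above the restricted hens (0.96 ± 0.33 (SE), FDR = 0.898). CCLI5 overlapped fully, at 61.7, 146 and 103 CPM in the ad libitum hens and 124, 45.6 and 130.3 CPM in the restricted hens (0.03 ± 0.46 (SE), FDR = 0.993). In ovary CCLI10 was at 10.2, 17.4 and 23.4 CPM in the ad libitum hens and 6.17, 7.46 and 2.22 CPM in the restricted hens, without overlap (1.73 ± 0.51 (SE), FDR = 0.878). CCL4 of ENSGALG00000000951 in ovary was at 2.81, 5.62 and 5.3 CPM in the ad libitum hens and 1.84, 2.2 and 0.942 CPM in the restricted hens, again without overlap (1.51 ± 0.46 (SE), FDR = 0.878). The log2 fold change of its neighbour was 1.08 and that of IL8L2 was 1.57, the latter from 107 counts over 6 libraries. IL8L2 passed the filter on low counts there through the ad libitum group alone, so a difference was built into its being tested. In liver IL8L2 had 100 counts, too few for the test, at 0.286, 3.97 and 1.66 CPM in the ad libitum hens and 1.33, 1.29 and 1.55 CPM in the restricted hens, and hen G1723 was above 2 times every other. In ovary CCL17 and CCLI5 had 34 counts each and were not tested. CCL17 was there at 0.112, 0.48 and 0.162 CPM in the ad libitum hens and 0.136, 0.0847 and 0.0304 CPM in the restricted hens, and CCLI5 at 0.0843, 0.17 and 0.0975 CPM in the ad libitum hens and 0.477, 0.113 and 0.122 CPM in the restricted hens, with M1723 and M1724 above 2 times every other hen. The 3 ligands tested in liver (CCL4 of ENSGALG00000000951, CCLI10 and CXCL12) had log2 fold changes of -0.19 to -0.15, all with overlap.

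CXCL12, which retains leukocytes and progenitor cells through CXCR4, was at 102 ± 10.7 CPM in liver, 167 ± 60.5 CPM in adipose and 81.6 ± 26.8 CPM in ovary, and its feeding groups overlapped in each tissue. Adipose had the largest log2 fold change, -0.56 ± 0.30 (SE), FDR = 0.907, with the values 125, 157 and 127 CPM in the ad libitum hens and 280.4, 187 and 127 CPM in the restricted hens. CXCL14, a chemokine of epithelia and of monocytes and dendritic cells, had 0 counts in all 6 liver libraries. In ovary it was at 2.79 to 21.2 CPM (median 7.45). Its mean there was at least 25.8-fold higher than the 0.355 CPM that 3 counts make in the liver library with the highest such floor. In adipose CXCL14 was at 1.37, 0.29 and 0.0454 CPM in the ad libitum hens and 0.165, 6.23 and 0.272 CPM in the restricted hens, and the high value of restricted hen F6709 overlapped with the ovary. In ovary it was at 7.53, 7.38 and 2.79 CPM in the ad libitum hens and 7.16, 8.84 and 21.2 CPM in the restricted hens (-1.0 ± 0.52 (SE), FDR = 0.878). Restricted hen M6710 was above 2 times every other hen, which was so for 3.44% of ovary genes.

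Of the chemokine receptors, CCR2 binds CC chemokines on monocytes, CXCR4 binds CXCL12, and CXCR7 is an atypical receptor that removes CXCL12. CXCR7 was at 4.48 to 9.01 CPM (median 5.52) in liver, 60.2 to 149.6 CPM (median 84.3) in adipose and 18.5 to 32.2 CPM (median 26.7) in ovary, and no library of one tissue reached into the next. CXCR4 was at 3.92 ± 2.42 CPM in liver, 33.1 ± 17.1 CPM in adipose and 16.3 ± 10.3 CPM in ovary, and CCR2 at 11.1 ± 4.48 CPM in liver, 7.03 ± 2.63 CPM in adipose and 3.07 ± 1.95 CPM in ovary. In ovary CXCR4 was at 21.3, 19.4 and 32.7 CPM in the ad libitum hens and 5.96, 12.3 and 6.23 CPM in the restricted hens. The groups did not overlap, and the log2 fold change of 1.63 ± 0.36 (SE), FDR = 0.878 had the smallest p of the members in this tissue. Ovarian CCR2 overlapped (1.26 ± 0.70 (SE), FDR = 0.878). In liver CCR2 was at 15.6, 17 and 10.3 CPM in the ad libitum hens and 5.49, 10.6 and 7.49 CPM in the restricted hens, and restricted hen G6709 was above ad libitum hen G1725 (0.87 ± 0.32 (SE), FDR = 0.337). In adipose CXCR4 was at 31.9, 31.4 and 22.5 CPM in the ad libitum hens and 30.4, 16.4 and 65.7 CPM in the restricted hens. Restricted hen F6710 was above 2 times every other hen, and the log2 fold change was -0.41 ± 0.47 (SE), FDR = 0.919. CXCR7 had log2 fold changes of 0.12 in liver, 0.34 in adipose and 0.34 in ovary, all with overlap.

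**Figure D3:**
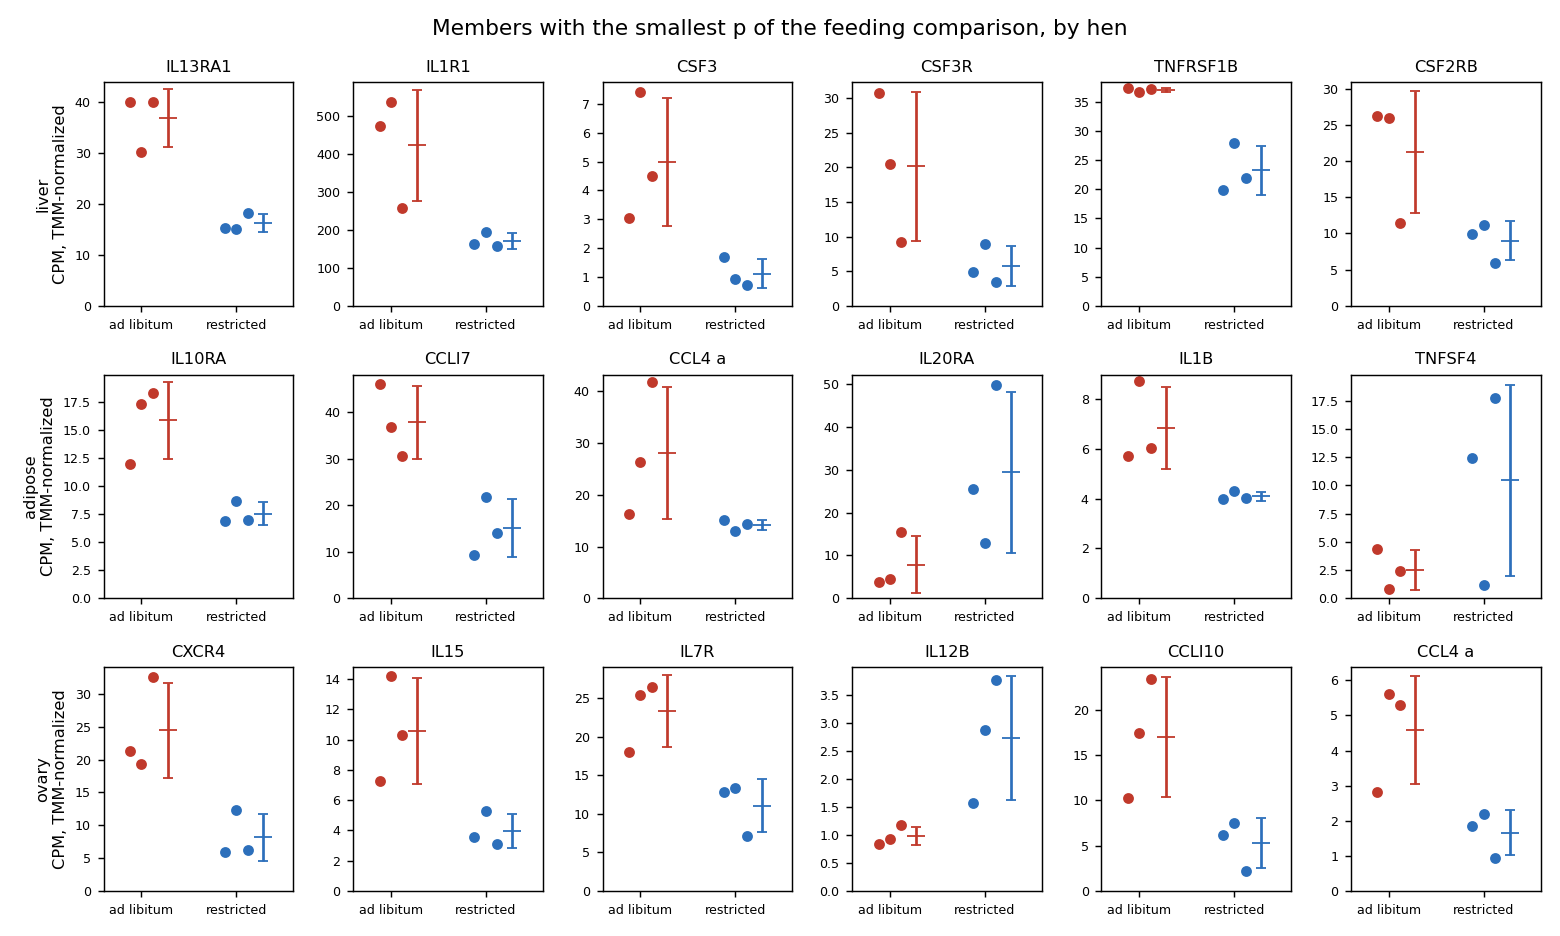
Members with the smallest p of the feeding comparison, 6 per tissue. Points are TMM-normalized CPM of single hens (red, ad libitum; blue, restricted), and the bar beside them is the mean with its SD (n = 3). The groups do not overlap in any of the 6 liver panels, overlap for IL20RA and TNFSF4 in adipose and do not overlap in any of the 6 ovary panels, where the restricted hens are higher for IL12B alone. Panels were picked by p, which favours such separation, so nothing is read from it. Over all genes tested, groups did not overlap for 21.2% in liver, 8.74% in adipose and 9.57% in ovary.

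Among the TNF superfamily ligands, TNFSF10 (TRAIL, which starts cell death) was at 134 to 767 CPM (median 333) in liver, 50.0 to 116 CPM (median 70.9) in adipose and 26.2 to 69 CPM (median 59) in ovary, and its log2 difference between liver and adipose was 2.31 ± 0.32 (SE), FDR = 6.62e-06. TNFSF13B (BAFF, a survival factor of B cells) was at 4.5 to 11.5 CPM (median 8.12) in liver, 3.42 to 9.35 CPM (median 4.7) in adipose and 23.4 to 65.3 CPM (median 45.4) in ovary. Every ovary library was above every other library, and the log2 difference was -2.48 ± 0.28 (SE), FDR = 6.74e-07 between liver and ovary and -3.06 ± 0.29 (SE), FDR = 2.04e-07 between adipose and ovary. Markers of B cells and plasma cells summed in ovary to 344 to 608 CPM in the ad libitum hens and 144 to 242 CPM in the restricted hens, in liver to 92.7 to 151 CPM in the ad libitum hens and 65.2 to 176 CPM in the restricted hens and in adipose to 25.6 to 103 CPM in the ad libitum hens and 80.9 to 228 CPM in the restricted hens. Only 3 of the 8 listed markers of these cells were found. The ovary sum was mostly JCHAIN, with means of 437 CPM in the ad libitum and 143 CPM in the restricted hens. BLNK lay the other way there (40.7 and 58.5 CPM), and POU2AF1 was low in both groups (1.09 and 0.877 CPM). The part of these cells in the TNFSF13B level was not tested. TNFSF4 (OX40 ligand, which costimulates T cells) was at 0.223 ± 0.211 CPM in liver, 6.49 ± 6.97 CPM in adipose and 0.538 ± 0.335 CPM in ovary. In adipose it was at 4.35, 0.823 and 2.41 CPM in the ad libitum hens and 12.4, 1.19 and 17.7 CPM in the restricted hens, where restricted hens F1724 and F6710 were high and restricted hen F6709 was low (-2.06 ± 0.94 (SE), FDR = 0.907). In liver TNFSF4 had 13 counts, at 0, 0.107 and 0.591 CPM in the ad libitum hens and 0.0886, 0.276 and 0.274 CPM in the restricted hens, and hen G1725 was above 2 times every other. TNFSF10 had log2 fold changes of 0.86 in liver, -0.03 in adipose and 0.52 in ovary, and TNFSF13B of 0.22, -0.57 and 0.62, all with overlap.

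The TNF receptor superfamily held 8 members. TNFRSF25, a receptor with a death domain found on T cells, was at 5.7 to 8.58 CPM (median 6.38) in liver, 31.8 to 189 CPM (median 86) in adipose and 2.34 to 5.82 CPM (median 3.6) in ovary, so every adipose library was above the others. TNFRSF11A (RANK) and TNFRSF11B (osteoprotegerin, which captures the ligand of RANK) differed in their order. TNFRSF11A was at 51.5 ± 5.12 CPM in liver, 33.2 ± 4.51 CPM in adipose and 15.2 ± 5.2 CPM in ovary, and TNFRSF11B at 4.36 ± 1.47 CPM in liver, 7.29 ± 1.98 CPM in adipose and 26.6 ± 4.01 CPM in ovary. Every ovary library was the highest for TNFRSF11B and every ovary library the lowest for TNFRSF11A, although with library size alone the log2 difference of TNFRSF11A between liver and ovary was -0.06. TNFRSF6B, a soluble decoy, was at 0.604 ± 0.265 CPM in liver, 3.34 ± 3.18 CPM in adipose and 2.95 ± 1.77 CPM in ovary, and was lower in liver than in adipose (-2.22 ± 0.55 (SE), FDR = 0.00184) and than in ovary (-2.19 ± 0.55 (SE), FDR = 0.00168). Liver overlapped with both other tissues for TNFRSF10B (a TRAIL receptor), TNFRSF18 (GITR, on regulatory T cells), TNFRSF1B (a TNF receptor of leukocytes) and TNFRSF21 (a death receptor). TNFRSF21 and TNFRSF18 did not pass the test between any 2 tissues. With feeding, TNFRSF1B in liver was at 37.3, 36.6 and 37.3 CPM in the ad libitum hens and 19.9, 27.9 and 22 CPM in the restricted hens. The ad libitum hens lay close together and above the restricted hens (0.67 ± 0.18 (SE), FDR = 0.324). In adipose TNFRSF6B was at 1.86, 8.81 and 4.95 CPM in the ad libitum hens and 0.55, 3.39 and 0.489 CPM in the restricted hens and overlapped (1.77 ± 0.88 (SE), FDR = 0.907). In ovary TNFRSF21 was separated with the restricted hens higher (-0.27 ± 0.17 (SE), FDR = 0.878), and the log2 fold changes of the other 7 were 0.22 to 1.36.

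Of the Toll-like receptors, TLR1B and TLR2B are chicken duplicates that sense bacterial lipoproteins, TLR5 senses flagellin and TLR7 senses single-stranded RNA. Reads of the duplicated TLR1 and TLR2 genes may also have been split, so their values are uncertain, and RefSeq names TLR2B as TLR2. TLR1B was at 17.5 ± 6.01 CPM in liver, 13.8 ± 4.1 CPM in adipose and 11 ± 4.67 CPM in ovary, TLR2B at 7.71 ± 2.94 CPM in liver, 3.78 ± 2.59 CPM in adipose and 2.25 ± 0.936 CPM in ovary, TLR5 at 12.2 ± 4.22 CPM in liver, 8.63 ± 3.03 CPM in adipose and 4.52 ± 0.93 CPM in ovary and TLR7 at 6.6 ± 1.61 CPM in liver, 14.1 ± 7.4 CPM in adipose and 10.3 ± 5.86 CPM in ovary, and the tissue with the highest mean overlapped with the next for each. In liver TLR1B was at 26.3, 23.6 and 14 CPM in the ad libitum hens and 15.4, 14 and 11.5 CPM in the restricted hens and TLR2B at 11.4, 10.7 and 6.86 CPM in the ad libitum hens and 3.63, 7.45 and 6.12 CPM in the restricted hens. Both groups overlapped, with log2 fold changes of 0.64 and 0.76. In ovary TLR7 was at 10.5, 14.9 and 18.5 CPM in the ad libitum hens and 8.04, 8.19 and 1.67 CPM in the restricted hens, without overlap (1.33 ± 0.58 (SE), FDR = 0.878). The log2 fold change of TLR5 was -0.12 in liver, 0.65 in adipose and 0.26 in ovary.

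In ovary 1 library was the lowest for most members. Restricted hen M6710 had the lowest value for 32 of 46 members, and 22.5% of all ovary genes were lowest in that library. Ad libitum hens M1725 and M1723 had the highest value for 18 and 15 members, beside 13.6% and 14.2% of all genes. The feeding comparison in ovary had named 24 members, mostly with the ad libitum hens higher. That favours a restricted hen as the lowest and an ad libitum hen as the highest, so these counts are a description. The 5 pan-leukocyte markers found summed in ovary to 163, 219.8 and 237 CPM in the ad libitum hens and to 99.6, 159 and 45.2 CPM in the restricted hens. The 9 macrophage markers summed to 302, 372 and 563 CPM against 168, 257 and 87.5 CPM. Both sums were lowest in hen M6710 and did not overlap between the groups, as was so for 16 of the 46 members (14 with the ad libitum hens higher) and for 9.57% of all genes (4.86% and 4.71% by direction). These markers (5 of 8 and 9 of 14 listed) were found through the same supplementary lists as the members, which the feeding comparison had in part named. Their shared separation is therefore a description and not independent of that comparison. No pan-leukocyte or macrophage marker was at 0 in all 6 ovaries. An unadjusted p under 0.05 was reached by 2 of the 5 pan-leukocyte markers (ITGB2 and LAPTM5) and 5 of the 9 macrophage markers (SPI1, CTSS, CYBB, C1QA and MPEG1). The sum of B cell and plasma cell markers, mostly JCHAIN, did not overlap either (sums above), although BLNK had a log2 fold change of -0.47. T cell markers summed to 16.7 to 34.4 CPM in the ad libitum hens and 10.6 to 23.2 CPM in the restricted hens, heterophil and granulocyte markers to 113 to 402 CPM in the ad libitum hens and 13.2 to 557 CPM in the restricted hens, and erythroid markers to 318 to 4829.8 CPM in the ad libitum hens and 71.8 to 615 CPM in the restricted hens. The high erythroid sum was that of hen M1723 alone. Ad libitum hens M1721 and M1725, at 318 and 479 CPM, were below restricted hen M6709 at 615 CPM. The part of these cells in the ovarian values was not tested. Without hen M6710, 11 members had an unadjusted p under 0.05 (10 of them among the 15 with all hens) beside 1.97% of all genes, and 39 of 46 were above 0. Without ad libitum hen M1725, 7 had such a p beside 2.05% of all genes. The counts without a hen are descriptions as well, since the feeding values of all hens had named many of these members.

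**Figure D4:**
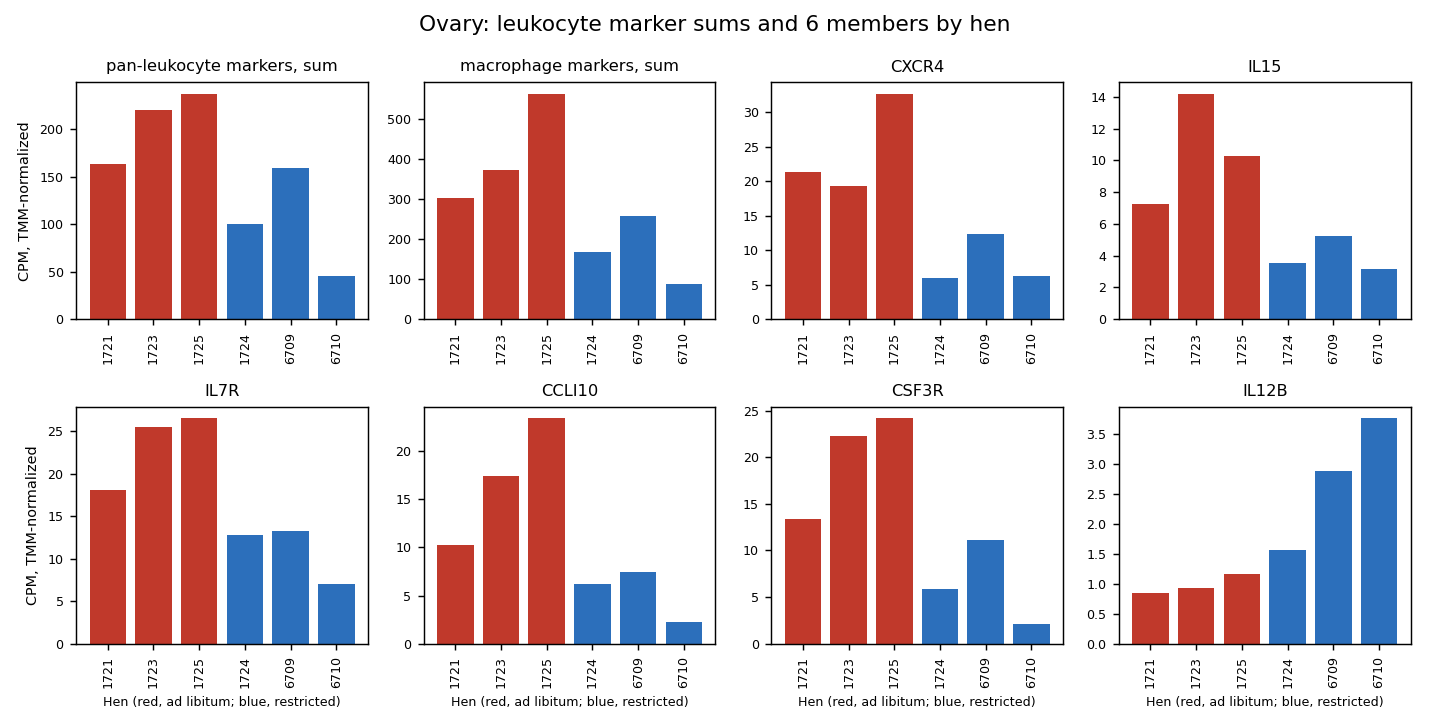
Summed leukocyte markers and 6 members in ovary by hen. Bars are TMM-normalized CPM (red, ad libitum hens; blue, restricted hens). The marker sums, CXCR4, IL15, IL7R, CCLI10 and CSF3R are higher in every ad libitum hen than in every restricted hen, and IL12B is lower. The 6 members were named by the feeding comparison in ovary, and markers were found through the same supplementary lists, so the separations are a description.

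In adipose the same sums overlapped between the feeding groups, at 396 to 576 CPM in the ad libitum hens and 258 to 477 CPM in the restricted hens for pan-leukocyte markers and at 659 to 1277 CPM in the ad libitum hens and 441 to 939 CPM in the restricted hens for macrophage markers. Heterophil and granulocyte markers summed to 3.15 to 7.2 CPM in the ad libitum hens and 5.92 to 66.7 CPM in the restricted hens, with restricted hen F6709 the highest. Of their 4 genes, LYZ, AvBD1 and AvBD2 had an unadjusted p under 0.05 and lower values in the ad libitum hens, as had the thrombocyte marker TUBB1, while the pan-leukocyte marker ITGB2 had such a p and higher values. AvBD1 and AvBD2 had means of 0.5 and 0.304 CPM in the ad libitum hens. They passed the filter on low counts through the restricted group alone, so a difference was built into their being tested. Hen F6709 also had the highest IL8L2 in adipose, at 7.55 CPM against 2.19, 1.45 and 5.31 CPM in the ad libitum hens. That is the value of 1 restricted hen. The median of IL8L2 over all 6 hens was 2.07 CPM, and its feeding groups overlapped, with a log2 fold change of -0.35 in the fit of all 18 libraries. Hen F1721 had the highest value for 19 of 49 members in adipose (19.9% of all genes) and the highest pan-leukocyte sum. The feeding comparison in adipose had named 18 members, so this count is a description. Hen F6710 had the lowest pan-leukocyte sum and the lowest value for 16 members. That was 32.7% of the members, close to the 29.3% of all genes, so nothing is read from it. Without F6709, 17 members had an unadjusted p under 0.05, and the share of all genes was 14.9% in place of 5.19%. Without F1721, F1723 or F1725 there were 9, 3 and 3 members beside 9.82%, 3% and 3.02% of all genes. The part of these cells in the adipose values was not tested. Groups that did not overlap were found for 6 of 49 members in adipose (IL1B, CCL4 of ENSGALG00000000951, IL13RA1, IL10RB, IL10RA and CCLI7), all with the ad libitum hens higher, beside 4.98% of all genes in that direction and 3.76% in the other (8.74% in all). In liver there were 7 of 42 (6 with the ad libitum hens higher), beside 21.2% of all genes (10.1% and 11.1%). Without G6710, 6 liver members had an unadjusted p under 0.05 beside 8.27% of all genes (13.7% with all hens). An exact permutation test of 3 hens against 3 cannot go below p = 0.1.

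Whether the feeding difference of a member was unequal in 2 tissues was fitted with an interaction term over the 18 libraries. The feeding values that named most members are part of this term (those of ovary for IL15, of liver and adipose for IL22RA2 and of liver and ovary for IL12B), so the values below describe these members and are no independent test. IL13RA1 had not been named by the feeding comparison. No member passed (0 of 51 with FDR under 0.1 for each pair of tissues), and no gene of the 13426 tested passed (0% called). An unadjusted p under 0.05 was reached by 7 members between liver and adipose, 9 between liver and ovary and 8 between adipose and ovary. Of all genes 5.41%, 5.33% and 5.45% reached it. These member counts are descriptions too, for the reason given above. DESeq2 called 1 member, IL15, between adipose and ovary. The smallest p belonged to IL13RA1, whose fitted log2 fold change was 1.18 in liver and -0.34 in ovary, a difference of 1.52 ± 0.28 (SE), FDR = 0.41. IL15 lay the other way, at -0.22 in adipose and 1.41 in ovary (-1.63 ± 0.35 (SE), FDR = 0.55), and its difference between liver and ovary was -1.54 ± 0.35 (SE), FDR = 0.899. The difference for IL22RA2 between liver and ovary was -3.52 ± 0.89 (SE), FDR = 0.899, resting on 44 counts in ovary, where its values were 0.197, 0.339 and 0.52 CPM in the ad libitum hens and 0.102, 0.113 and 0.0608 CPM in the restricted hens. That for IL12B was 2.38 ± 0.63 (SE), FDR = 0.899, from the liver and ovary values given above.

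Between tissues, many members differed, as did most genes. Of the 37 members tested, 27 passed an FDR under 0.1 between liver and adipose (12 higher in liver and 15 in adipose), 29 between liver and ovary (22 higher in liver and 7 in ovary) and 28 between adipose and ovary (23 higher in adipose and 5 in ovary). Of all 13426 genes 75.6%, 80.4% and 72.9% passed (by direction 33.4% and 42.2%, 35.9% and 44.5%, and 37.4% and 35.5%). The share of members that passed was close to that of all genes, so nothing is read from the count. The directions depended on the scaling, because the TMM factors were 0.423 to 0.498 in liver, 1.101 to 1.328 in adipose and 1.589 to 1.791 in ovary. With library size alone, an alternative chosen after the factors had been seen, the median log2 difference over all genes moved by -1.36 between liver and adipose, by -1.85 between liver and ovary and by -0.49 between adipose and ovary. The members then split 7 to 27, 5 to 22 and 16 to 5, and the share of all calls that were higher in the former tissue went from 44.2% to 12.1%, from 44.7% to 9.66% and from 51.3% to 29.9%.

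The members below were called in the same direction under both scalings. Against adipose, 7 were higher in liver (TNFSF10, IL7R, IL22RA2, IL1R2, IL1RL1, IL13RA2 and CSF3) and 15 were higher in adipose, among them CCLI7, both CCL4 genes, CXCL12, IL10RA, IL2RB, TNFSF4 and TLR7. Against ovary, 5 were higher in liver (TNFSF10, IL22RA2, IL6ST, IL1R2 and CSF3) and 7 in ovary (CCL4 of ENSGALG00000000956, TNFRSF6B, CXCL14, IL1RAPL2, TNFSF13B, IL10RA and CCLI7). Between adipose and ovary, 16 were higher in adipose and 5 in ovary (CXCL14, IL7R, IL1RL1, TNFSF13B and IL13RA2). The sign turned with library size for 5 of the members called between liver and adipose (IL12B, TLR2B, TLR5, IL6ST and TNFSF13B), for 12 of those between liver and ovary, such as IL7R (1.02 against -0.83) and IL1B (0.69 against -1.16), and for IL10RA between adipose and ovary. The liver levels of IL15, IL10RB and CCR2 lay above those of adipose with TMM and below them with library size. The same holds for the liver and adipose levels of TNFRSF11A and, between liver and ovary, for those of IL2RG and IL17RC.

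**Figure D5:**
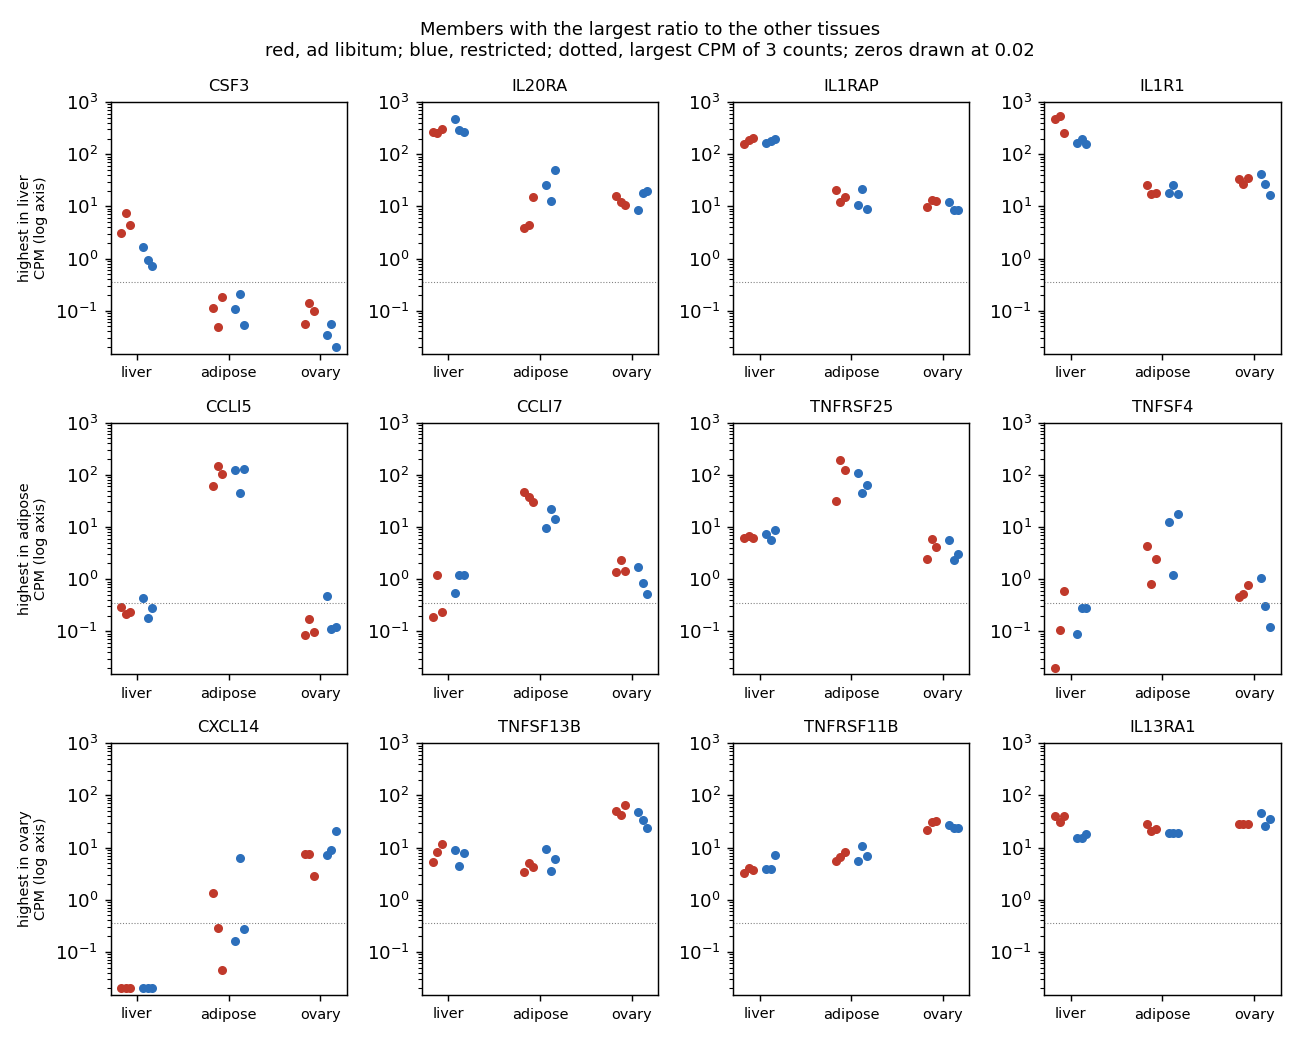
Members with the largest ratio to the other tissues, 4 each for liver, adipose and ovary. Points are TMM-normalized CPM of single libraries on a log axis (red, ad libitum; blue, restricted), the dotted line is the largest CPM that 3 counts make (0.355), and zeros are drawn at 0.02. CSF3, IL20RA, IL1RAP and IL1R1 stand above in liver, CCLI5, CCLI7 and TNFRSF25 in adipose and TNFSF13B and TNFRSF11B in ovary without overlap, whereas TNFSF4, CXCL14 and IL13RA1 overlap with another tissue.

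Genes downstream of these receptors were taken from lists drawn up with earlier results of these data known. The lists were of JAK-STAT components (12 of 19 found), of TLR, IL1 receptor and NF-kB components (11 of 31) and of other cytokine receptors (5 of 12). A gene could be found only if the study's supplementary lists gave its symbol, and the list of differentially expressed genes was shortened by feeding p. The counts under 0.05 below are therefore descriptions and not evidence on feeding. None of the genes found had an FDR under 0.1 in any tissue. In liver 6 of the 12 JAK-STAT genes had an unadjusted p under 0.05, all higher in the ad libitum group, with the smallest p for SOCS3, an inhibitor induced by cytokine signals, at 16.3 against 5.34 CPM (log2 fold change 1.61 ± 0.23 (SE), FDR = 0.274). The median log2 fold change of the list was 0.61 in liver, 0.16 in adipose and 0.37 in ovary, where 0 and 1 genes were under 0.05. Of the NF-kB list, 3 genes in liver (MAP3K8, NFKBIZ and TRAF6), 0 in adipose and 2 in ovary (MAP3K8 and NFKBIZ) were under 0.05, and all were higher in the ad libitum group. MAP3K8, a kinase downstream of TLR, was at 26.7 against 3.39 CPM in liver (log2 fold change 2.97 ± 0.71 (SE), FDR = 0.324). Of the other receptors, IFNGR1, IFNAR1, LIFR and OSMR in liver and IFNAR1 in ovary were under 0.05, with log2 fold changes of 0.70 to 1.10 in liver. In liver 6.24% of all genes had such a p with the ad libitum hens higher.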

How the data were processed

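Liver, abdominal fat and ovary RNA of 6 hens was sequenced as paired reads. Per the study's methods and the deposited table, the authors aligned reads to Gallus_gallus-5.0 with TopHat 2.1.1 and Bowtie 2.0.6 and made raw read counts per Ensembl gene in R with GenomicFeatures and GenomicAlignments. Their handling of strand and of reads with several matches is not given in the sources used here, and it bears on duplicated genes. The table holds no columns of the authors' own comparisons.

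The counts as deposited were fitted with edgeR 4.0.16 (R 4.3.3) by the quasi-likelihood test with TMM factors, within each tissue for feeding and over 18 libraries for tissues and the interaction, with Benjamini-Hochberg FDR under 0.1 over all genes tested. A gene was tested if it was above 1 CPM, without the TMM factors, in every library of at least 1 group. The standard error (SE) printed with a log2 fold change was worked back from the test. It is the size of the log2 fold change divided by the square root of the F statistic. Alternatives were DESeq2 1.42.0, the likelihood ratio test, RLE or library size scaling, other filters, all 18 libraries in 1 fit, each hen left out and the hen as a block. The same number in a library name marks the same hen, so libraries pair across tissues. The deviations of paired libraries from their group means correlated at 0.014 to 0.256 between adipose and ovary, -0.090 to 0.236 between liver and adipose and -0.165 to 0.162 between liver and ovary. The scripts were tested on simulated data.

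Members, gene lists and tests were chosen with earlier results of these data known. Values of every hen are given for the 6 members with the smallest feeding p in each tissue, those with 1 hen above 2 times every other, the 4 with the largest ratio to the other tissues (as ranges over hens) and the 4 with the smallest interaction p, and for others where they help. Symbols were paired with RefSeq through Entrez identifiers for 44 of the 51 members. Family genes that the rule did not name were not analysed here. The values of 1 member and 1 listed gene are not reported here, although counts over members and lists include them. Figures were drawn with matplotlib 3.10.9.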

Additional observations from a re-analysis of the deposited data

How the results depend on the processing

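With the quasi-likelihood test no member passed an FDR under 0.1 for feeding. DESeq2 gave 5 in liver, 2 in adipose and 2 in ovary, and the likelihood ratio test gave 4, 1 and 1. Over all genes the counts were 1, 241 and 146 in liver by the quasi-likelihood test, DESeq2 and the likelihood ratio test, 1, 78 and 88 in adipose and 0, 48 and 24 in ovary. DESeq2 called 1 member (IL15) for the interaction between adipose and ovary. The cause of the difference between the tools was not tested. By the quasi-likelihood test, RLE or library size scaling, the other filters and the fit of all 18 libraries left the counts of members at 0. Over all genes, either scaling called 1 gene in liver, 1 in adipose and 0 in ovary. Leaving out 1 hen gave 0 to 2 calls in liver (2 without G6709, IL1R2 and IL22RA2, where 104 of 10440 genes passed). G6709 was the restricted hen that lay among the ad libitum hens for both, so nothing is read from these 2 calls. Without 1 hen, members with an unadjusted p under 0.05 numbered 6 to 14 in liver (11 with all hens), 3 to 17 in adipose (5) and 7 to 21 in ovary (15). The share of all genes with such a p ran from 7.41% to 22.1%, 3% to 14.9% and 1.97% to 16.3%. The count moved by over 1.5 times without G6710 (6), F1721 (9), F1723 (3), F1725 (3), F6709 (17) and M1725 (7). Positive log2 fold changes numbered 27 to 30, 26 to 38 and 37 to 41. The liver minus adipose interaction of IL15 was -0.039 with library size alone, and without 1 hen it ranged from -0.13 (without the hen of F6710) to 0.29. That of IL22RA2 ranged from -1.47 to 0.17. With the hen as a block the tissue calls were 28, 30 and 30 in place of 27, 29 and 28, and the interaction calls stayed at 0, so the block changed no count by over 1.5 times. Depth limits genes with few counts, such as CCL17, CCLI5 and TNFSF4 outside adipose.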
